A study of Homo sapiens with 4 samples.

Results

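The vemurafenib-resistant culture (RV) of A375 melanoma cells held cells with many *AXL* transcripts beside cells in which none was counted, and these 2 groups were compared for all other genes. AXL-high cells were RV cells with 5 or more *AXL* UMIs (a UMI, or unique molecular identifier, stands for 1 captured transcript), and AXL-negative cells were RV cells with 0. There were 578 AXL-high and 1094 AXL-negative cells among 4327 filtered RV cells, and 28640 filtered cells in the whole series. The groups were thus chosen by the measured *AXL* count itself, so that their *AXL* values are a description.

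A375 is an established human *BRAF*-mutant melanoma line. RV cells had been kept on the BRAF inhibitor vemurafenib for 10 to 14 days, and the drug was removed 24 h before capture. The untreated, sensitive culture (S) served here as the other library in which the same split could be made. Cultures resistant to vemurafenib with the MEK inhibitors cobimetinib (RVC) or trametinib (RVT) held only 10 and 4 cells with 5 or more *AXL* UMIs, too few to compare. For each condition 10000 cells of 1 culture had been loaded onto the droplet chip (10x Genomics, v2 chemistry), giving 1 library. Cells of 1 culture are no replicates, so no p-value is given, and every interval below is an exact 95% interval that covers counting error only.

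*AXL* encodes a receptor tyrosine kinase of the TAM family (TYRO3, AXL, MERTK), whose ligands are GAS6 and protein S, the product of *PROS1*. In melanoma, high AXL is known as a mark of a de-differentiated, invasive state with low activity of the melanocyte regulator MITF, and it has been tied to resistance against inhibitors of the MAPK pathway. Genes of that invasive state are in part driven by AP-1 factors such as FOSL1 and by YAP with TEAD factors.

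*AXL* (ENSG00000167601, GRCh38 chr19:41219203-41261766, plus strand) had 9374 UMIs in RV, or 170 UMIs per 1000000 UMIs (CPM, 166 to 173). The level was 95.5 CPM in S, 77.1 in RVC and 99.1 in RVT. An *AXL* UMI was found in 74.7% of RV, 47.9% of S, 26.1% of RVC and 24.4% of RVT cells, but cells of these libraries differed in depth, with medians of 11648, 8911, 4099 and 2951 UMIs. No type of cell in these cultures is known to lack *AXL*, so that the share due to free RNA could not be measured.

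Within RV, 1889 cells had 1 to 2 *AXL* UMIs and 766 had 3 to 4, between the 1094 cells with 0 (25.3%) and the 578 with 5 or more (13.4%). The highest count in a cell was 28. The mean was 2.17 *AXL* UMIs per cell and the variance 6.20, which is 2.86 times the mean. Counts fell off without a gap at the threshold. Just outside it stood 287 cells with 4 *AXL* UMIs and a median of 13333 UMIs in all, and just inside it 181 cells with 5 and a median of 14553. Pooled over each class, *AXL* was at 114 CPM with 1 to 2 UMIs, 237 CPM with 3 to 4 and 436 CPM with 5 or more.

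**Figure D1:**
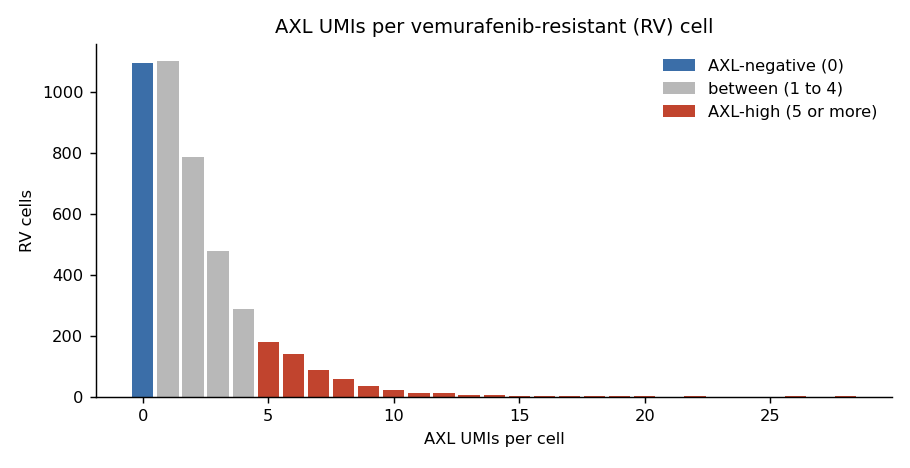
Number of RV cells (vertical axis) by the number of *AXL* UMIs counted in the cell (horizontal axis), with AXL-negative cells in blue, AXL-high cells in red and the cells between them in grey. The 1094 cells at 0 and the 1102 cells at 1 are the tallest bars, and counts tail off to 28 with no gap at the threshold of 5.

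The groups differed in depth, as a rule on a count makes them. AXL-high cells had a median of 14715.5 UMIs and 2993 genes, and AXL-negative cells 10013.5 UMIs and 2263 genes. Mitochondrial genes took similar shares, with medians of 2.96% and 3.15%. Each ratio was therefore also taken with AXL-negative cells weighted to the depth of AXL-high cells in 10 bins (depth-matched), and with every cell thinned at random to 6158 UMIs. At equal depth the median cell had 1761 genes in the AXL-high and 1686 in the AXL-negative group. The 2 deepest bins hold only 11 and 5 AXL-negative cells, and for genes that moved much without these 2 thin bins that value is given below too. RV shared 38 of its cell barcodes with S and 53 each with RVC and RVT. By the highest doublet scores, 5.54% (3.82% to 7.73%) of AXL-high and 2.29% (1.48% to 3.36%) of AXL-negative barcodes would be removed, and the counts of genes without them are given beside the main counts.

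The labelled cell type could be checked only in part. Of the melanoma and neural crest markers, *SOX10* was at 33.02 CPM in AXL-high and 51.9 CPM in AXL-negative cells, whereas the pigment genes *PMEL*, *MLANA* and *TYR* had 4, 1 and 0 UMIs in AXL-high and 2, 0 and 0 UMIs in AXL-negative cells. Of 13 markers of blood cells, endothelium and keratinocytes, 9 had no UMI in either group (*PTPRC*, *CD3E*, *MS4A1*, *HBA1*, *HBB*, *VWF*, *CDH5*, *KRT5*, *KRT1*). The summed level of the 13 was 9.24 CPM in AXL-high and 14.8 CPM in AXL-negative cells, nearly all of it *KRT14* with 8.17 and 13.1 CPM.

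In AXL-high cells, genes of mitosis, *GADD45A*, *PPP1R15A*, the AP-1 subunit *FOSL1* and *MITF* were higher than in AXL-negative cells, whereas *HLA-DRA* and *CD74* of the MHC class II system, most genes of the matrix list and the nuclear RNA *NEAT1* were lower. Among 3804 genes with at least 20 CPM over all RV cells, 167 (4.39%) were at least 1.5-fold higher and 77 (2.02%) at least 1.5-fold lower in AXL-high cells. After TMM scaling, which moved the median log2 ratio of all genes from 0.11 to 0.03, these were 120 and 113. Without the barcodes of the highest doublet scores they were 177 and 83. Depth-matched, 221 (5.81%) were at least 1.5-fold higher and 48 (1.26%) lower, and after thinning 232 (6.1%) and 101 (2.66%). Of the 167 higher genes 162 kept their side of 1 when depth-matched, beside 70.5% of all genes above 1, and 95 also stayed past 1.5-fold. Of the 77 lower genes all 77 kept their side, beside 29.5% of all genes below 1, and 41 stayed past 1.5-fold. Both sets were picked for their difference in these cells, and depth matching only weights the same cells anew. Nothing is therefore read from the sides they kept. Most differences were small. Of all genes 67.7% lay above 1 and 32.3% below, and a difference of 25% or more was reached by 19.4% upward and 6.34% downward.

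The 15 highest ratios comprised 10 genes of the G2/M list, which collects genes needed for mitosis. *TOP2A*, a topoisomerase that untangles DNA before chromosomes separate, was at 119.5 CPM (113 to 127) in AXL-high and 42.0 CPM (38.3 to 45.9) in AXL-negative cells. This is a 2.85-fold difference (2.56 to 3.17), or 2.43-fold when depth-matched. At 6158 UMIs per cell, 39.2% of AXL-high and 15.5% of AXL-negative cells had a *TOP2A* UMI. The kinase gene *CDK1*, whose product drives entry into mitosis, was 2.75-fold higher (2.31 to 3.29) with 44.1 and 16.0 CPM, and 2.02-fold when depth-matched. *UBE2C*, which helps to degrade mitotic cyclins, was 2.72-fold higher (2.55 to 2.90) with 334 and 123 CPM, and 1.86-fold when depth-matched. The other 7 were *NUF2*, *CDCA3*, *AURKA*, *AURKB*, *NUSAP1*, *TPX2* and *MKI67*, with ratios between 2.30 and 2.78. Most of them serve the spindle or the kinetochore, and *MKI67* is a common mark of dividing cells.

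The levels of these genes were ordered by the *AXL* count, and the classes between the extremes held levels between them. *TOP2A* was at 42.0, 68.4, 88.2 and 119.5 CPM in cells with 0, 1 to 2, 3 to 4 and 5 or more *AXL* UMIs. *UBE2C* went from 123 over 183 and 237 to 334 CPM. Of the 15 highest genes 14 stepped up through all 4 classes, the exception being *SNHG12*, beside 30.6% of all genes, and all 15 of the lowest stepped down, beside 11.8% of all genes. Since these genes were picked for the difference between the end classes, nothing is read from those counts.

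**Figure D2:**
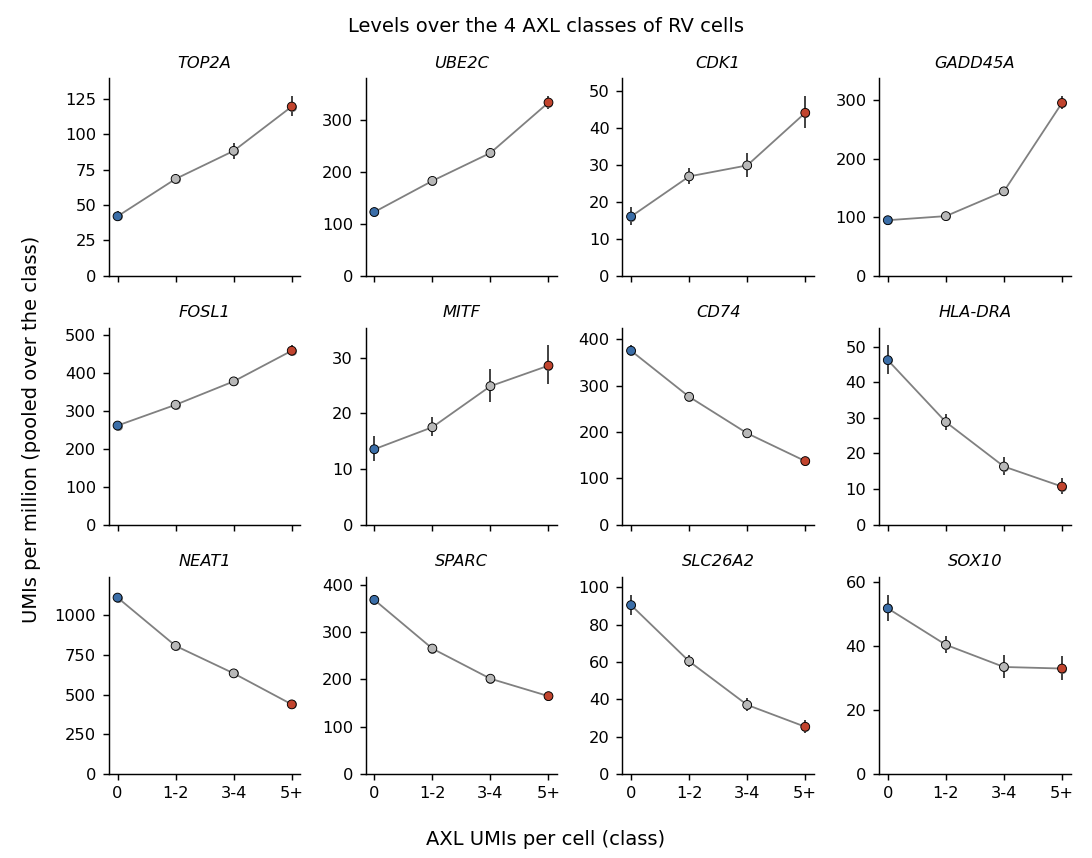
Pooled level (vertical axes, CPM, each starting at 0) of 12 genes in RV cells with 0, 1 to 2, 3 to 4 and 5 or more *AXL* UMIs (horizontal axis), bars giving exact 95% Poisson intervals for counting error. *TOP2A*, *UBE2C*, *CDK1*, *GADD45A*, *FOSL1* and *MITF* go up in steps, and *CD74*, *HLA-DRA*, *NEAT1*, *SPARC*, *SLC26A2* and *SOX10* go down.

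Of all 26 G2/M genes tested, 26 were higher in AXL-high cells, beside 67.7% of all genes. Of these 21 were at least 1.5-fold higher, beside 4.39% of all genes, and 20 when depth-matched, beside 5.81%. Their median log2 ratio was 0.99 and 0.88 when depth-matched, beside 0.11 and 0.13 over all genes. The smallest ratios of the list were 1.30 for *CBX5*, a heterochromatin protein, and 1.31 for *RANGAP1*, of nuclear transport. Over all cells of the groups genes of DNA synthesis differed less, a gap that was small in settings given below. Of 19 G1/S genes 17 were higher and 6 at least 1.5-fold higher, or 9 when depth-matched, with a median log2 ratio of 0.42 and 0.56. *RRM2*, the ribonucleotide reductase subunit of S phase, led them at 1.87-fold (1.72 to 2.04), whereas the replication clamp *PCNA* was 1.17-fold higher (1.04 to 1.33).

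Shares of cells with much of their UMIs on G2/M genes differed in the same direction, which rests on the same gene list. After thinning, 17.0% (14.0% to 20.3%) of AXL-high and 4.07% (2.92% to 5.49%) of AXL-negative cells were among the cells with the highest 10% of G2/M shares. The thinning left out 12 AXL-high and 110 AXL-negative cells with fewer UMIs. Depth tertiles were set over the AXL-high and AXL-negative RV cells together. Within them, the shares were 16.4% and 3.74% in the shallowest, 12.4% and 2.97% in the middle and 19.0% and 6.80% in the deepest tertile. Cells in G2 and mitosis hold more RNA than cells in G1, and *AXL*, total UMIs and G2/M genes moved together here. The part of phase and of depth in the *AXL* count was not tested. Without the cells of the highest G2/M shares, 172 genes were at least 1.5-fold higher and 84 lower in AXL-high cells. Without them, the depth-matched median over bins with at least 20 AXL-negative cells was 0.69 for the G2/M list and 0.63 for the G1/S list.

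In cells below the median G2/M share, 147 AXL-high and 639 AXL-negative, the G2/M median was 0.35 and the G1/S median 0.32. That share is built from the G2/M genes themselves, and depth was not matched there. *AURKA*, a spindle kinase, was at 0.84 times its AXL-negative level in these cells, *AURKB* at 1.08 times and *CDK1* at 1.17 times. *TOP2A* was still 1.98-fold and *UBE2C* 1.96-fold higher.

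Promoters of mitotic genes are known to carry CCAAT boxes and the cell cycle homology region (CHR), which repressor and activator complexes of the cell cycle bind. The RefSeq promoters of the GRCh38.p14 table (300 bases each) were searched on both strands for 4 words. These were CCAAT for the box of that name, TTTGAA for the CHR, TGANTCA for AP-1 and GGAATG for TEAD factors. The table held promoters for 11 of the 15 highest genes (13 promoters) and 9 of the 15 lowest (10 promoters). CCAAT was in 9 of the 13 and in 5 of the 10, and in 34.6% of all 35114 promoters. TTTGAA was in 7 of the 13 and in 4 of the 10, and in 15.2% of all. Both words together were in 6 of the 13, 2 of the 10 and 5.90% of all. No promoter of either set held the AP-1 word, which was in 7.71% of all, and the TEAD word was in 3 of the 13, 1 of the 10 and 14.0% of all. These are matches of letters, and no binding was measured.

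A stretch of the mitotic gene *NUSAP1* that held CCAAT only, and a shorter one of *CDK1* that held neither CCAAT nor TTTGAA, are not shown. The upstream stretches of 3 mitotic genes that held both words are shown, beside that of *AXL* itself. Each runs 5′ to 3′ and ends before the start of both the RefSeq transcript and the GENCODE 29 gene, in lower case, with CCAAT and TTTGAA on either strand in capitals. They are TOP2A at chr17:40417951-40418146 (minus strand), CDK1 at chr10:60778081-60778330 (plus), MKI67 at chr10:128126424-128126673 (minus) and AXL at chr19:41218973-41219202 (plus).
TOP2A: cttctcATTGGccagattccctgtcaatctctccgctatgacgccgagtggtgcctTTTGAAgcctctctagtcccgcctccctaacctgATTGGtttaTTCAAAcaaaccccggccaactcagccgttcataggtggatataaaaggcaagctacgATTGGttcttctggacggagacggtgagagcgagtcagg
CDK1: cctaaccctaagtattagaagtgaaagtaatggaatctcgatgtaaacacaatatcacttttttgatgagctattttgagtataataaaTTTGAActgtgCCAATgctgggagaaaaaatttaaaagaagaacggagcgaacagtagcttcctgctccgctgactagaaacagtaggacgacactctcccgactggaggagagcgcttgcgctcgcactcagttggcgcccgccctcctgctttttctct
MKI67: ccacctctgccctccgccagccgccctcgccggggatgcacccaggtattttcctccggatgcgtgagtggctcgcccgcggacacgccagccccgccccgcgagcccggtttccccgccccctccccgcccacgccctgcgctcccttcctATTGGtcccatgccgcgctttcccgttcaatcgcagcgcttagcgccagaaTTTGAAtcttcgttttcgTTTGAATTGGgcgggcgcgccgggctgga
AXL: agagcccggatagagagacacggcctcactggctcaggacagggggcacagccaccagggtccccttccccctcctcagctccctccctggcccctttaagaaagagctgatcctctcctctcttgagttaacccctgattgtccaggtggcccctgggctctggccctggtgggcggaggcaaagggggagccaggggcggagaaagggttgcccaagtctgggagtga
In MKI67 a TTTGAA and a CCAAT match on the other strand share bases in the stretch TTTGAATTGG. The AXL stretch held none of the 4 words, which says only that these letters are not in this window.

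The 5 other genes among the 15 highest have other functions. *SNHG12*, a small nucleolar RNA host gene, was at 101 CPM (95.2 to 108) in AXL-high and 29.4 CPM (26.3 to 32.7) in AXL-negative cells, 3.45-fold higher (3.05 to 3.92). *GADD45A*, a p53 target and DNA damage response gene, was at 296 and 95.005 CPM, 3.11-fold higher (2.90 to 3.34). Both were carried by few cells, since the top 5% of AXL-high cells held 68.9% of the *SNHG12* and 62.0% of the *GADD45A* UMIs. At equal depth 19.8% of AXL-high and 10.1% of AXL-negative cells had a *SNHG12* UMI. Depth-matched over all bins, the ratios were 1.32 for *SNHG12* and 1.28 for *GADD45A*, but without the 2 bins of 11 and 5 AXL-negative cells they were 3.43 and 2.45. Within depth tertiles, from shallowest to deepest, *SNHG12* was at 1.53 (0.87 to 2.54), 1.31 (0.96 to 1.79) and 3.13 (2.61 to 3.79), and *GADD45A* at 2.40, 2.12 and 2.48. In cells below the median G2/M share *GADD45A* came to 1.45, no longer past 1.5-fold, and *SNHG12* to 2.19.

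*PPP1R15A*, which restarts translation after stress, was 2.26-fold higher (2.07 to 2.47) with 155 and 68.7 CPM. Its ratio was 2.03 when depth-matched and 2.09 in cells below the median G2/M share. *FRMD6*, which acts upstream in the Hippo pathway that restrains YAP, was 2.91-fold higher (2.40 to 3.56) with 37.5 and 12.9 CPM. Depth-matched it was 1.55-fold higher over all bins and 2.92-fold without the 2 thin bins. *ADAMTS6*, a secreted metalloprotease, was 2.77-fold higher (2.29 to 3.36) with 38.2 and 13.8 CPM, 1.69-fold when depth-matched, and 2.40-fold without the 2 thin bins.

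**Figure D3:**
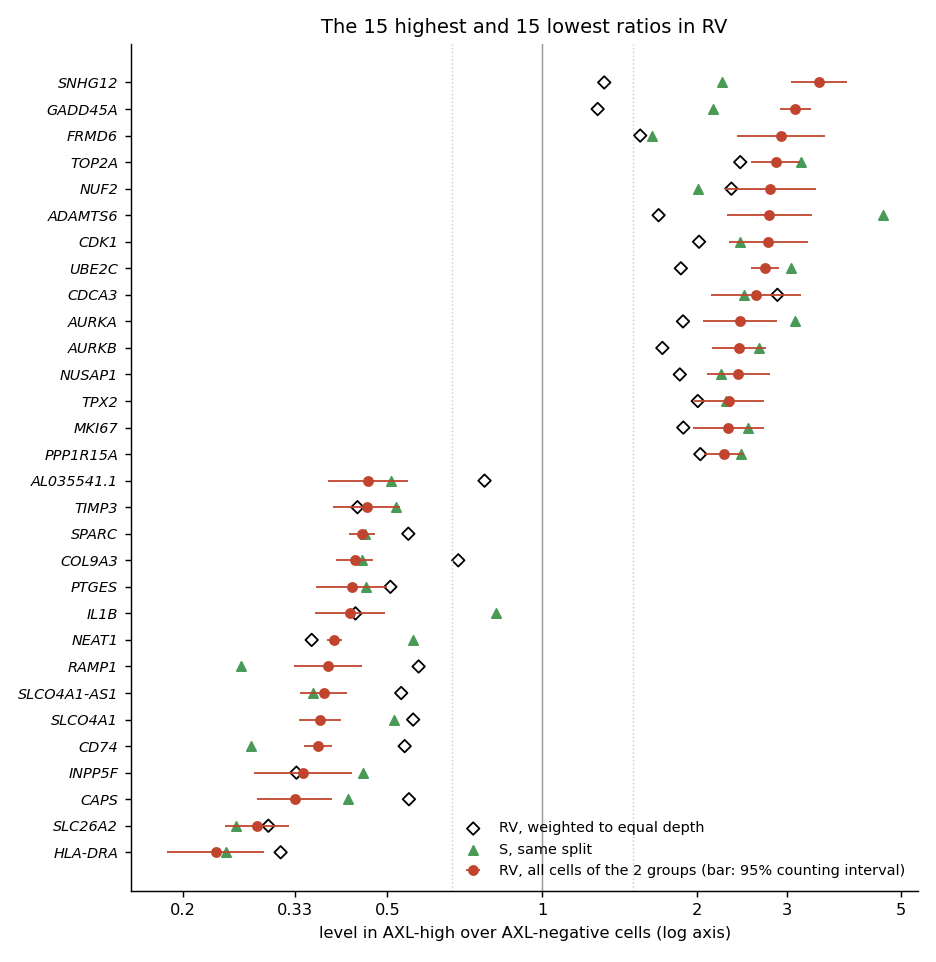
Ratio of the pooled level in AXL-high over AXL-negative cells (log axis) for the 15 highest and 15 lowest genes in RV: red points with exact 95% counting intervals for RV, open diamonds for RV with AXL-negative cells weighted to equal depth, green triangles for S. The red points and diamonds of a gene lie on 1 side of 1 by the rule that chose it, the triangles lie on that side too, and in *SNHG12*, *GADD45A* and *FRMD6* the diamonds, which rest partly on 16 deep AXL-negative cells, lie far left of the red points.

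Known partners of AXL were barely counted. *GAS6* was at 3.72 CPM in AXL-high and 2.89 CPM in AXL-negative cells, a ratio of 1.29 (0.78 to 2.14). *PROS1* was at 2.55 and 2.27 CPM with a ratio of 1.12 (0.62 to 2.03), and *TYRO3* at 3.19 and 3.24 CPM with a ratio of 0.98 (0.59 to 1.64). *MERTK* had no UMI in either group, which, with 3 UMIs taken as the limit of a count of 0, allows up to 0.318 CPM in AXL-high and 0.262 CPM in AXL-negative cells. Differences in these partners were not detectable at this depth.

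The 3 other receptor tyrosine kinases with at least 20 CPM were higher in AXL-high cells, as were 67.7% of all genes. *EPHA2* was at 95.9 and 64.6 CPM (1.48-fold higher, 1.35 to 1.64), *MET*, the receptor of hepatocyte growth factor, at 28.8 and 21.0 CPM (1.37-fold, 1.15 to 1.64) and the collagen receptor *DDR2* at 27.8 and 21.0 CPM (1.32-fold, 1.11 to 1.59). Depth-matched, *EPHA2* stayed at 1.52 while *MET* and *DDR2* were at 1.06 and 1.07, and without the 2 thin bins at 1.39 and 1.45. *EGFR* lay below 20 CPM, with 14.0 CPM in AXL-high and 8.22 CPM in AXL-negative cells, 1.70-fold higher (1.30 to 2.24). Its ratio was 1.97 when depth-matched, but 1.28 without the 2 thin bins. *ERBB3*, the neuregulin receptor of melanocytes, went the other way with 7.33 and 21.1 CPM, 0.35 times (0.26 to 0.46), or 0.47 when depth-matched and 0.56 without the 2 thin bins.

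Of the melanocyte regulators, *MITF* and *SOX10* differed in opposite directions. *MITF* (chr3:69739435-69968337), the master regulator of melanocytes, was at 28.6 CPM (25.2 to 32.2) in AXL-high and 13.6 CPM (11.5 to 15.9) in AXL-negative cells. It was 2.11-fold higher (1.72 to 2.58), 1.97-fold when depth-matched, and stood at 13.6, 17.5, 24.9 and 28.6 CPM over the 4 classes. In cells below the median G2/M share *MITF* came to 1.42, no longer past 1.5-fold. *SOX10*, a neural crest factor known to activate *MITF*, was at 0.64 times its AXL-negative level (0.55 to 0.73) and at 0.70 when depth-matched. *S100B*, another neural crest marker, had 16 UMIs (1.70 CPM) in AXL-high and 142 UMIs (12.4 CPM) in AXL-negative cells, a ratio of 0.14 (0.08 to 0.23) and of 0.28 when depth-matched. These levels are low, and in thinned cells a *MITF* UMI was found in 13.4% of AXL-high and 8.13% of AXL-negative cells.

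Genes of the invasive melanoma state did not share 1 direction. Of 19 tested genes 14 were higher and 5 lower, a split near that of all genes, of which 67.7% lay above 1. The median log2 ratio was 0.37, or 0.26 depth-matched, beside 0.11 and 0.13 over all genes. *FOSL1*, the AP-1 subunit FRA1, was at 458 CPM in AXL-high and 261 CPM in AXL-negative cells, 1.75-fold higher (1.67 to 1.84) and 1.81-fold when depth-matched. At equal depth 85.7% of AXL-high and 64.4% of AXL-negative cells had a *FOSL1* UMI. Its ratio was 1.54 in cells below the median G2/M share. The caveolin gene *CAV1* was 1.40-fold higher (1.33 to 1.47), but 1.07-fold when depth-matched and 1.39-fold without the 2 thin bins. The lower members were *SPARC*, *SERPINE2*, *PLAT*, *TGFBI* and *NT5E*.

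Targets of YAP and TEAD were higher in 9 of 11 cases, beside 67.7% of all genes, with 3 past 1.5-fold, beside 4.39% of all genes. Their median log2 ratio was 0.53, or 0.45 depth-matched. These 3 were *AJUBA* at 1.68 (1.39 to 2.03), *ANKRD1* at 1.59 (1.48 to 1.70) and *AMOTL2* at 1.55 (1.34 to 1.79). Depth-matched, 3 of 11 passed as well, but not the same ones. *ANKRD1* stayed at 1.59, *AJUBA* and *AMOTL2* came to 1.42 and 1.37, and *CRIM1* and *DLC1* reached 1.51 each. *CCN1*, a matricellular protein, was 1.45-fold higher (1.31 to 1.60) with 92.7 and 64.0 CPM. *CCN2*, its relative, lay below 20 CPM with 11.8 and 7.96 CPM, 1.48-fold higher (1.11 to 1.98). *WWTR1*, which encodes the YAP paralog TAZ, was lower at 0.71 (0.65 to 0.77).

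Of 8 AP-1 and immediate early genes 7 were higher, beside 67.7% of all genes, and 3 past 1.5-fold, beside 4.39%. These were *FOSL1*, *JUN* (1.70, 1.42 to 2.03) and *KLF6* (1.63, 1.35 to 1.96), while *IER3* and *JUNB* were at 1.03 and 1.02. Depth-matched, *JUN* and *KLF6* came to 1.18 and 1.35, which left 1 gene past 1.5-fold, beside 5.81% of all genes. The median log2 ratio of the list was 0.18, or 0.23 depth-matched, beside 0.11 and 0.13 over all genes. In cells below the median G2/M share it was -0.12, beside 0.03 over all genes. Of 11 output genes of ERK signalling 6 were higher and 5 lower, beside 67.7% of all genes above 1. Their median log2 ratio was 0.03, beside 0.11 over all genes, and TMM scaling turned it to -0.05. Depth-matched, 8 were higher, beside 70.5% of all genes, and 3 past 1.5-fold, beside 5.81%. The median was then 0.09, or 0.15 without the 2 thin bins, beside 0.13 over all genes in both. *DUSP6*, a feedback phosphatase of ERK, was at 1.02 (0.92 to 1.14), whereas *DUSP4*, a relative of it, was at 0.64 (0.60 to 0.68) with 159.6 and 248 CPM, and at 0.72 when depth-matched, no longer past 1.5-fold. *CCND1*, the cyclin of G1, was at 0.96 (0.92 to 1.01).

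**Figure D4:**
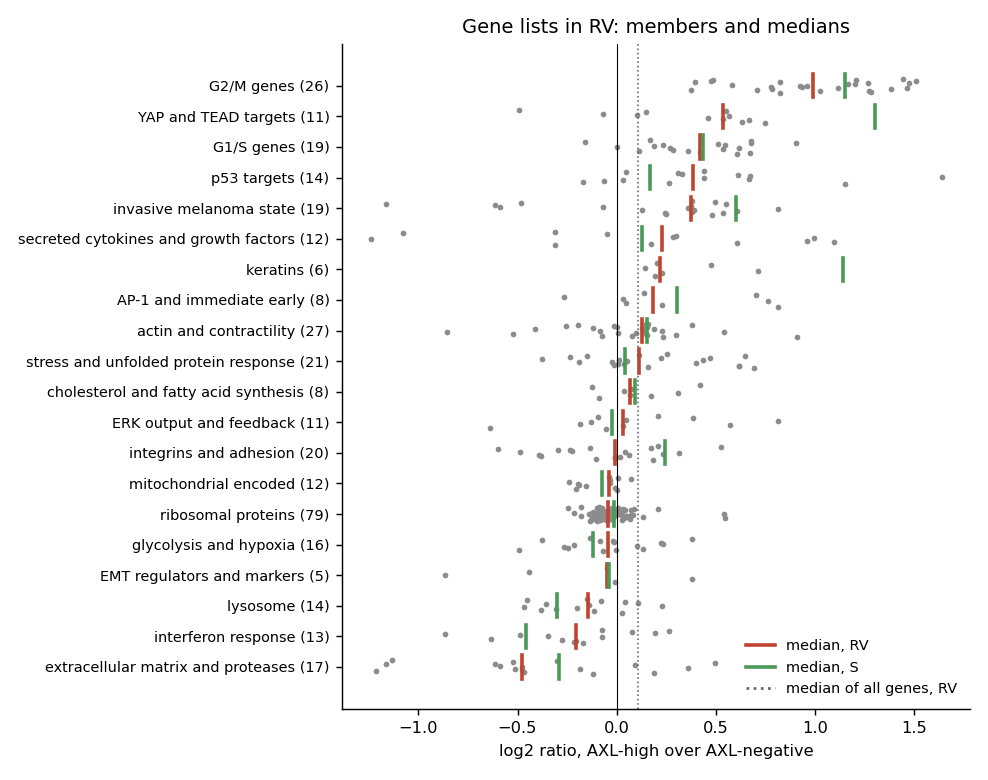
Log2 ratio of AXL-high over AXL-negative RV cells (horizontal axis) for the tested members (grey points) of the 20 gene lists with at least 5 tested genes, their number in brackets. Red lines are list medians in RV, green lines in S, and the dotted line is the median of all genes in RV, 0.11. The G2/M list stands highest at 0.99 and the matrix list lowest at -0.48.

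Of 12 secreted factors 7 were higher, beside 67.7% of all genes, or 6 when depth-matched, beside 70.5%. *IL24*, a cytokine of the IL-10 family, was at 481 and 242 CPM, 1.99-fold higher (1.90 to 2.09), and *IL11* was 1.94-fold higher (1.71 to 2.21). *IL24* and *IL11* were at 1.95 and 1.81 when depth-matched. *GDF15*, a stress-induced cytokine, was 2.13-fold higher (1.99 to 2.29) but at 0.98 when depth-matched and at 1.00 without the 2 thin bins. Other settings differed, with 2.19 after thinning, 2.55 in cells below the median G2/M share and, in S, 4.64 or 3.13 depth-matched. The top 5% of cells held 50.2% of its UMIs in AXL-high and 64.7% in AXL-negative cells. *IL1B*, an inflammatory cytokine, was 0.42 times (0.36 to 0.49) with 23.7 and 55.9 CPM, and the EGF receptor ligand *TGFA* was 0.47 times (0.41 to 0.54). The metallothionein *MT2A*, which binds zinc, was at 7374 and 4588 CPM, 1.61-fold higher (1.59 to 1.63).

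Targets of p53 were higher in 12 of 14 cases, beside 67.7% of all genes, with a median log2 ratio of 0.38. Depth-matched over all bins, 5 were higher and 9 lower with a median of -0.10. Without the 2 thin bins, which leaves 462 AXL-high and 1044 AXL-negative cells, the median was 0.33, and in cells below the median G2/M share -0.07. The list thus had no direction that held in every setting. *CDKN1A*, the p21 inhibitor of the cell cycle, was at 1.02 (0.97 to 1.08) with 272 and 266 CPM. Depth-matched it was at 0.61 over all bins, but at 0.70 without the 2 thin bins, no longer past 1.5-fold. In cells below the median G2/M share it was at 0.87. *MDM2*, which degrades p53, was at 1.59 (1.39 to 1.83), and at 0.95 when depth-matched over all bins.

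The lowest ratios included *HLA-DRA* and *CD74*, which belong to the MHC class II system of antigen presentation, for which no list was set. *HLA-DRA*, the alpha chain of HLA-DR, was at 10.7 CPM (8.73 to 13.0) in AXL-high and 46.2 CPM (42.3 to 50.3) in AXL-negative cells, 0.23 times (0.19 to 0.29), or 0.31 when depth-matched and 0.44 without the 2 thin bins. Its levels over the 4 *AXL* classes were 46.2, 28.8, 16.3 and 10.7 CPM. Few cells carried it, since the top 5% of cells held 62.4% of its UMIs in AXL-high and 54.7% in AXL-negative cells. *CD74*, the invariant chain that accompanies class II molecules, was at 137 and 376 CPM, 0.37 times (0.34 to 0.39) and 0.54 when depth-matched. *CD74* was also lower within each depth tertile, at 0.21, 0.50 and 0.65 times. *HLA-DPA1*, named here after its value was seen, was at 0.49 (0.42 to 0.56). *B2M*, the invariant light chain of class I molecules, was at 0.89 (0.87 to 0.91), and at 1.01 when depth-matched. Of 13 interferon response genes 10 were lower, beside 32.3% of all genes, with a median log2 ratio of -0.20. Depth-matched, 8 were lower, beside 29.5% of all genes, with a median of -0.01, beside 0.13 over all genes. Of the 13, 2 were then at least 1.5-fold lower, beside 1.26% of all genes.

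Of 17 genes of the extracellular matrix and its proteases 13 were lower, beside 32.3% of all genes, and 5 were at least 1.5-fold lower, beside 2.02%. Depth-matched, 13 were lower, beside 29.5% of all genes. The 2 genes *SPARC* and *TIMP3* were then at least 1.5-fold lower, beside 1.26% of all genes. The median log2 ratio was -0.48, and -0.26 depth-matched. *SPARC*, a collagen-binding matricellular protein, was at 165 and 369 CPM, 0.45 times (0.42 to 0.47) and 0.55 when depth-matched. The collagen gene *COL9A3* was at 0.43 (0.40 to 0.47), and at 0.69 when depth-matched. *TIMP3*, an inhibitor of metalloproteases, was at 0.46 (0.39 to 0.53), or 0.44 when depth-matched and 0.60 without the 2 thin bins, and *SERPINE2*, an inhibitor of serine proteases, at 0.65 (0.64 to 0.67) with 804 and 1230 CPM, or 0.75 when depth-matched. *THBS1*, a YAP target, was higher at 1.41 (1.27 to 1.56), and at 1.20 when depth-matched.

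*NEAT1*, the long noncoding RNA of paraspeckles, was at 438 CPM (425 to 452) in AXL-high and 1112 CPM (1093 to 1131) in AXL-negative cells, 0.39 times (0.38 to 0.41). Weighting for depth left it at 0.36. *NEAT1* stays in the nucleus, as does *MALAT1*, which was at 0.62 (0.62 to 0.63), or 0.81 when depth-matched, and was named after its value was seen.

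Further genes among the 15 lowest take part in transport and signalling. The sulfate transporter gene *SLC26A2* was at 25.3 and 90.5 CPM, 0.28 times (0.24 to 0.32). It was at 0.29 when depth-matched and at 0.45 without the 2 thin bins. *CAPS*, a calcium-binding protein, was 0.33 times (0.28 to 0.39), *INPP5F*, a phosphoinositide phosphatase, 0.34 (0.28 to 0.43) and *RAMP1*, a co-receptor for calcitonin-family peptides, 0.38 (0.33 to 0.45). Depth-matched, *CAPS* and *RAMP1* came to 0.55 and 0.57, while *INPP5F* stayed at 0.33. The organic anion transporter gene *SLCO4A1* was 0.37 times (0.34 to 0.41) and its antisense *SLCO4A1-AS1* 0.38 times (0.34 to 0.42), and depth-matched 0.56 and 0.53 times. These 2 genes overlap over 3706 bases, and whether counting used the strand is not given in the sources used here, so their reads cannot be told apart. *PTGES*, a prostaglandin E synthase, was 0.43 times (0.36 to 0.50), and 0.51 when depth-matched. The uncharacterised *AL035541.1* (ENSG00000227297) was 0.46 times (0.38 to 0.55), but 0.77 when depth-matched, which is no longer past 1.5-fold. It was the only one of the 15 not lower in every depth tertile, with a ratio of 1.01 in the deepest.

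Several large groups had medians near 0, beside 0.11 over all genes. Of 79 ribosomal protein genes none reached 1.5-fold, and their median log2 ratio was -0.04. Of them 57 were lower, beside 32.3% of all genes. Depth-matched, 71 were lower, beside 29.5% of all genes, with a median of -0.08, beside 0.13 over all genes. Integrin and adhesion genes had a median of -0.01 with 11 of 20 lower, or 0.01 with 10 of 20 lower depth-matched. Glycolysis and hypoxia genes had a median of -0.05 with 5 of 16 higher, which depth matching turned to 0.17 with 13 of 16 higher, beside 70.5% of all genes. The mesenchymal markers *VIM* and *CD44* were at 0.97 (0.95 to 0.98) and 0.99 (0.95 to 1.03), whereas the calcium-binding proteins *S100A4* and *S100A6* were lower at 0.55 (0.52 to 0.57) and 0.74 (0.73 to 0.74). Depth-matched, *S100A4* came to 0.76, no longer past 1.5-fold, and *S100A6* to 0.79. Lysosomal genes were lower in 10 of 14 cases, beside 32.3% of all genes, with a median of -0.14, but depth-matched 7 were higher and 7 lower with a median of 0.02. Of 6 keratin genes 6 were higher with a median of 0.22, or 4 of 6 with a median of 0.09 depth-matched, beside 67.7% and 70.5% of all genes. *KRT7* was at 1.64 (1.58 to 1.70), and at 1.45 when depth-matched. The remaining lists, read beside the 67.7% of all genes that were higher, had medians of 0.13 (actin and contractility, 17 of 27 higher), 0.11 (stress and unfolded protein response, 15 of 21), 0.07 (cholesterol and fatty acid synthesis, 6 of 8, and -0.01 after TMM scaling), -0.04 (mitochondrial genes, 3 of 12) and -0.05 (EMT regulators and markers, 1 of 5). In the stress list 4 of 21 genes passed 1.5-fold, beside 4.39% of all genes. These were *ASNS*, *TRIB3*, *DDIT3* and *CHAC1*, which are induced by amino acid shortage or unfolded proteins. Depth-matched, 4 of 21 passed as well, beside 5.81% of all genes, without *DDIT3* at 1.42 but with *PSAT1* at 1.54. The depth-matched median was 0.24, beside 0.13 over all genes.

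The same split in S gave 183 AXL-high and 3486 AXL-negative cells, from a culture that played no part in choosing the genes. Of 3730 genes with at least 20 CPM in S, 236 (6.33%) were at least 1.5-fold higher and 228 (6.11%) lower in its AXL-high cells. Of the 167 genes higher in RV, 156 were above 1 in S and 111 past 1.5-fold, and of the 77 lower genes 72 were below 1 and 50 past 1.5-fold. Of all genes tested in S, 49.9% lay above and 50.1% below 1. Across 3530 genes with at least 20 CPM in both libraries, the ratios in RV and S had a Spearman correlation of 0.55, or 0.45 depth-matched. This describes genes, which are not independent, and total UMIs per cell differed between the groups in both libraries.

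All 15 highest genes of RV were at least 1.5-fold higher in S, and 13 of the 15 when S was depth-matched too, without *NUF2* at 1.30 and *FRMD6* at 1.498. *TOP2A* stood at 230 and 72.0 CPM there (3.19-fold, 2.91 to 3.50) and *ADAMTS6* at 27.7 and 6.02 CPM (4.60-fold, 3.44 to 6.09). *MITF* was at 19.4 and 7.46 CPM in S, 2.60-fold higher (1.87 to 3.55) or 1.92-fold depth-matched, and *SOX10* at 45.1 and 95.2 CPM, 0.47 times (0.39 to 0.57). Of the 15 lowest, 14 were at least 1.5-fold lower in S, such as *HLA-DRA* at 0.24 (0.19 to 0.30) and *CD74* at 0.27 (0.25 to 0.29). *IL1B* was at 0.81 in S (0.57 to 1.13), an interval that holds 1. Depth-matched in S, 13 of the 15 lowest stayed past 1.5-fold, without *IL1B* at 0.92 and *AL035541.1* at 0.70.

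**Figure D5:**
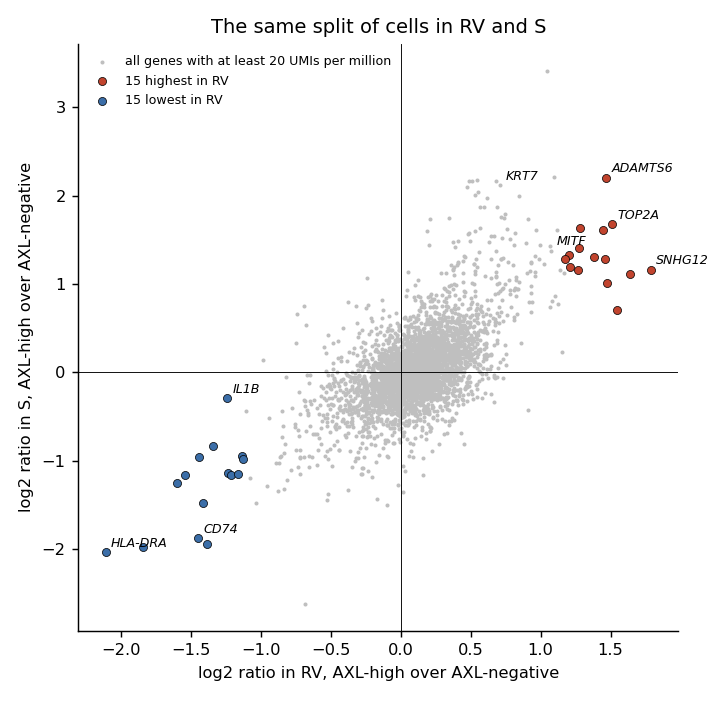
Log2 ratio of AXL-high over AXL-negative cells in RV (horizontal axis) and S (vertical axis) for genes with at least 20 CPM in RV (grey), with the 15 highest (red) and 15 lowest (blue) of RV. All 30 lie in the upper right or lower left part of the plot, and *IL1B* lies nearest to 0 in S.

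Some ratios were larger in S than in RV, but the same rule took unlike parts of the 2 cultures. AXL-high cells were 2.73% of S and 13.4% of RV cells, and AXL-negative cells 52.1% and 25.3%. *KRT7* was 4.35-fold higher (4.05 to 4.67) in S and 1.64-fold in RV, *CCN1* 4.02-fold (3.43 to 4.69) and 1.45-fold, and *EGFR* 4.22-fold (2.77 to 6.29) and 1.70-fold. Depth-matched in both, they were 3.38 and 1.45 for *KRT7*, 2.81 and 1.45 for *CCN1* and 2.72 and 1.97 for *EGFR*. The YAP and TEAD list had a median log2 ratio of 1.30 in S beside 0.53 in RV, and the keratin list 1.14 beside 0.22, or 1.07 beside 0.45 and 1.02 beside 0.09 when depth-matched. The invasive melanoma list was at 0.60 in S beside 0.37 in RV, or 0.46 beside 0.26 when depth-matched. Over all genes the medians in S were 0.02, and 0.03 when depth-matched. The G2/M list was at 1.15 in S beside 0.99 in RV, but depth-matched at 0.84 beside 0.88. With 1 library per condition, these differences between the cultures could not be tested.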

How the data were processed

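Single-cell RNA sequencing of A375 cells comprised 1 library per condition. The deposited values are raw UMI counts for each Ensembl gene in each barcode, which the authors made with Cell Ranger on GRCh38 after bcl2fastq 2.20.0.422. The annotation, strand setting and barcode filter are not given in the sources used here. The study kept fewer RV cells than the table has barcodes.

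Of 4328 RV barcodes, 4327 had at least 500 genes and at most 20% of UMIs on mitochondrial genes. UMIs were summed per group and expressed per 1000000 UMIs less *AXL* (9419203 UMIs in AXL-high and 11430978 in AXL-negative cells). Ratios carry exact conditional binomial intervals, shares exact Clopper-Pearson and levels exact Poisson intervals, all at 95% and for counting error only. A count of 0 was read as at most 3 UMIs. Doublets were kept in the main values. Depth was matched by weights in 10 bins with edges at the deciles of AXL-high cells, which leaves out 34 AXL-negative cells, and by thinning to 6158 UMIs. Such weighted ratios have no exact interval. No test was made between groups of cells. Reads of overlapping or antisense genes may be mixed.

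Named genes were the 15 highest and 15 lowest ratios among genes with at least 20 CPM whose interval leaves out 1 and whose depth-matched and thinned ratios lie on the same side of 1. To these came up to 4 of the most abundant members per gene list, and *MITF*, *SOX10*, *EGFR*, *GAS6*, *TYRO3*, *MERTK*, *PROS1*, *FOSL1*, *CCN1* and *CCN2*. Other list members were picked to show a list's extremes after their values were seen. The groups, the lists and the rule were chosen with earlier results of these data known. Symbols were found for 32807 of 33694 identifiers in the current table and filled from GENCODE 29, leaving 591 without one.

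Alternatives were other *AXL* thresholds, cell and gene filters, TMM scaling (edgeR 4.0.16 in R 4.3.3), totals without ribosomal and mitochondrial genes, equal weight per cell, removal of 150 barcodes with the highest scrublet scores (scanpy 1.11.5, 0.8% per 1000 barcodes, since the tool itself called 2), removal of cells with high G2/M shares, a lower fold and a pseudocount of 1 UMI. Leaving out thin depth bins and taking cells below the median G2/M share were chosen after seeing the data. Scripts used python 3.11.15, numpy 2.4.6, scipy 1.17.1, pandas 2.3.3 and matplotlib 3.10.9, and were tested on simulated data. There, 100% of 200 genes set 2-fold higher in AXL-high cells were past 1.5-fold, and 0% of unchanged genes. Of 200 genes linked to depth only, 18.5% were past 1.5-fold over all cells, and 0% when depth-matched. The counting interval over all cells left out 1 for 39.2% of unchanged genes.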

Additional observations from a re-analysis of the deposited data

How the results depend on the processing

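No paired analysis was possible because each condition is 1 library with no replicate, so leaving out a replicate was not possible either. Of 36 alternative values for the counts of genes 23 stayed within 1.5 times. Groups set after thinning took thinned cells with 2 or more *AXL* UMIs as AXL-high, instead of 5 or more. Of 1054 AXL-high cells set in this way, 435 were AXL-high by the main rule. Of 1760 AXL-negative cells set in this way, 984 were AXL-negative by the main rule. That setting thus compares other groups, and its values do not show the main groups at equal depth. The number at least 1.5-fold higher (167) was 48 with groups set after thinning, 305 with 8 or more and 91 with 3 or more *AXL* UMIs, 72 at 50 CPM or more, 534 at 5 CPM or more, and 739 where a 25% difference counted. The number lower (77) was 15 with groups set after thinning, 119 with 8 or more *AXL* UMIs, 34 at 50 CPM, 270 at 5 CPM, 241 where a 25% difference counted, 48 when depth-matched and 121 in cells below the median G2/M share.

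Of 280 alternative list medians (log2) 229 moved by less than the median half-width of their member genes' counting intervals. That width describes single genes and is not the counting error of a list median, so these 229 are not shown to be unchanged. Depth-matched, the medians were -0.26 for matrix genes, 0.086 for keratins, 0.010 for secreted factors, -0.015 for interferon response, 0.17 for glycolysis, 0.019 for lysosome and -0.084 for ribosomal proteins, and p53 targets changed sign to -0.10. Over bins with at least 20 AXL-negative cells they were 0.35 for AP-1 genes, 0.12 for keratins, 0.11 for glycolysis and -0.073 for ribosomal proteins. Without the highest G2/M cells in those bins they were 0.36 for AP-1, 0.20 for ERK output, 0.15 for keratins, -0.059 for interferon, 0.24 for stress, 0.13 for glycolysis, 0.63 for G1/S, 0.69 for G2/M and -0.071 for ribosomal proteins. In cells below the median G2/M share they were -0.12 for AP-1, -0.12 for EMT, -0.18 for matrix, 0.050 for actin, 0.56 for keratins, -0.093 for secreted factors, -0.20 for glycolysis, 0.35 for G2/M and 0.033 for ribosomal proteins, p53 targets changed sign to -0.074, and the log2 ratio of *AURKA* changed sign to -0.26. With groups set after thinning they were 0.26 for YAP and TEAD, 0.012 for EMT, -0.24 for matrix, 0.043 for p53 and 0.63 for G2/M. Thinning gave 0.32 for keratins, 1.18 for G2/M and -0.078 for mitochondrial genes, and equal weight per cell 0.34 for keratins. TMM scaling gave -0.13 for EMT, 0.046 for actin, 0.14 for keratins, -0.12 for ribosomal and -0.12 for mitochondrial genes, and put ERK output and cholesterol synthesis below 0, at -0.05 and -0.01. Totals without ribosomal and mitochondrial genes gave -0.082 and -0.075 for those lists. With 8 or more *AXL* UMIs keratins were at 0.29 and p53 targets at 0.64, and with 3 or more actin was at 0.036 and ribosomal proteins at -0.021. The cause of these changes was not tested.

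Of the 15 highest genes 8, and of the 15 lowest 4, stayed past 1.5-fold in every setting. Differences between cells of 1 culture carry no spread between cultures, and genes near 20 CPM rest on few UMIs.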
